A study of Mus musculus with 6 samples.

Results

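The MYC, MAX and MXD network was taken as 8 genes, Myc, Mycn, Max, Mxd1, Mxd3, Mxd4, Mxi1 and Mnt, out of the 19818 genes that could be tested. A gene entered through a feature of the array whose platform annotation gave its symbol and no other. All 8 genes were found, each with 1 feature, and none was lost to a filter on low signal, since no filter was applied. Expression was read in mature B cells from mouse spleen, activated and then infected with a retrovirus that carried a green fluorescent protein marker. The empty vector (EV) was compared with a vector for IKK K171E (IKK_K171E) and a vector for MYD88 L265P (MYD88_L265P). All 3 groups went through the same steps: 36 hours with mitogen after infection, washing, 24 hours without mitogen, and sorting of green cells. Each group had 2 Affymetrix mouse ST 1.0 arrays, which the labels call biological replicates without saying whether they came from separate animals or cultures. The p-values below therefore measure the spread between these arrays, which may be technical in part. The labels give the IKK construct without a subunit and give no strain, age or sex for the mice.

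MYC and its relatives are transcription factors of the basic helix-loop-helix leucine zipper class. MYC and MYCN bind DNA at E-boxes when paired with MAX and activate genes of growth, ribosome production and metabolism. MXD1, MXI1, MXD3, MXD4 and MNT pair with the same MAX, bind the same sites and recruit the SIN3 corepressor with histone deacetylases. In B cells Myc is switched on by mitogens and antigen, and its repression accompanies the exit from the cell cycle.

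The arrays held B cell RNA by the markers listed for it. The median log2 signal of 7 B cell genes lay between 11.4 and 11.8 on all 6 arrays. Against EV, 4 of the 7 were called lower in MYD88_L265P and 1 in IKK_K171E. Called lower over all features were 7.33% and 0.413%. All 7 lay below EV without overlap in both groups, with median log2 fold changes of -0.52 and -0.44. The same was true of 47.9% and 28.4% of all features. Correlations across features ran from 0.989 to 0.995 between replicate arrays and from 0.967 to 0.990 between arrays of different groups. Myd88 stood at 12.25 and 12.31 on the MYD88_L265P arrays and between 9.14 and 9.43 elsewhere, and Ikbkb at 11.35 and 10.68 in IKK_K171E against 9.68 to 10.22 elsewhere, so the IKK_K171E replicates were uneven. Signals are log2 values with no detection call, so a dim gene cannot be separated here from background. They are not scaled per length, so where a feature ranks in signal describes its brightness on the array and not how much of the transcript there was.

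Myc, which encodes the activator at the centre of the network, was uneven between replicates. Its log2 signal was 11.28 and 10.48 on EV replicates 1 and 2, 11.50 and 11.16 in IKK_K171E, and 11.56 and 11.59 in MYD88_L265P. Both MYD88_L265P arrays lay above all others, while EV replicate 1 lay above IKK_K171E replicate 2. EV replicate 2 stood lowest, and the SD of Myc was 0.57 in EV, 0.24 in IKK_K171E and 0.02 in MYD88_L265P (n = 2 each).

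The difference in Myc between MYD88_L265P and EV missed the threshold. The log2 fold change was 0.69 (SE 0.24, 95% interval 0.11 to 1.26), or 1.61-fold, with a limma adjusted p of 0.0881 against a threshold of 0.05 over all features. With the replicate numbers as a block the same difference passed (SE 0.18, adjusted p = 0.0432), though no label says that a shared number marks a shared animal, culture or day. Between IKK_K171E and EV it was 0.45 (interval -0.13 to 1.02, adjusted p = 0.411), and between MYD88_L265P and IKK_K171E 0.24 (interval -0.33 to 0.82, adjusted p = 0.581). EV decided these values: without EV replicate 1 they were 1.09 over EV for MYD88_L265P (adjusted p = 0.00824) and 0.85 for IKK_K171E (adjusted p = 0.0485). Without EV replicate 2 the same differences were 0.29 and 0.05.

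Mycn, the MYC paralogue best known from neural and early progenitor cells, moved the other way. Its log2 signal was 7.45 on both EV arrays, 7.24 and 7.20 in IKK_K171E, and 7.17 and 7.08 in MYD88_L265P. The 3 groups did not overlap, in the order EV, IKK_K171E, MYD88_L265P. Mycn fell by 0.32 in MYD88_L265P relative to EV (SE 0.09, 1.25-fold, limma adjusted p = 0.0434). Its log2 fold change was -0.23 in IKK_K171E against EV (adjusted p = 0.238) and -0.10 in MYD88_L265P against IKK_K171E (adjusted p = 0.523).

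The Mycn call rested on a small change in a dim feature. Its mean signal was higher than that of 26.3% of features, and among features with a mean of 7.21 to 8.12, 83.0% had a log2 fold change below 0 in MYD88_L265P against EV, with a median of -0.16. The call ended in 9 of 15 alternative analyses, among them quantile normalization (-0.19, adjusted p = 0.183), a common median (-0.24, adjusted p = 0.103) and the removal of any 1 array (adjusted p from 0.0518 to 0.212). The genes whose centred values over the 6 arrays lay nearest to those of Mycn were Hdac7, a class IIa histone deacetylase gene (root mean square difference 0.0144), Cnga2, a channel subunit gene of olfactory neurons (0.0192), and Mexis (0.0201).

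Max, the shared partner of the other factors in the network, was level across the groups. It stood at 11.05 and 11.16 in EV, 11.04 and 11.20 in IKK_K171E, and 11.07 and 11.22 in MYD88_L265P. All groups overlapped, and the spread within each exceeded the differences between them. The log2 fold changes were 0.03 for MYD88_L265P against EV (interval -0.21 to 0.28), 0.01 for IKK_K171E against EV (-0.23 to 0.26) and 0.02 for MYD88_L265P against IKK_K171E (-0.22 to 0.27), with limma adjusted p-values from 0.815 to 0.969. A change of Max by more than 0.28 in either direction lay outside these intervals.

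**Figure D1:**
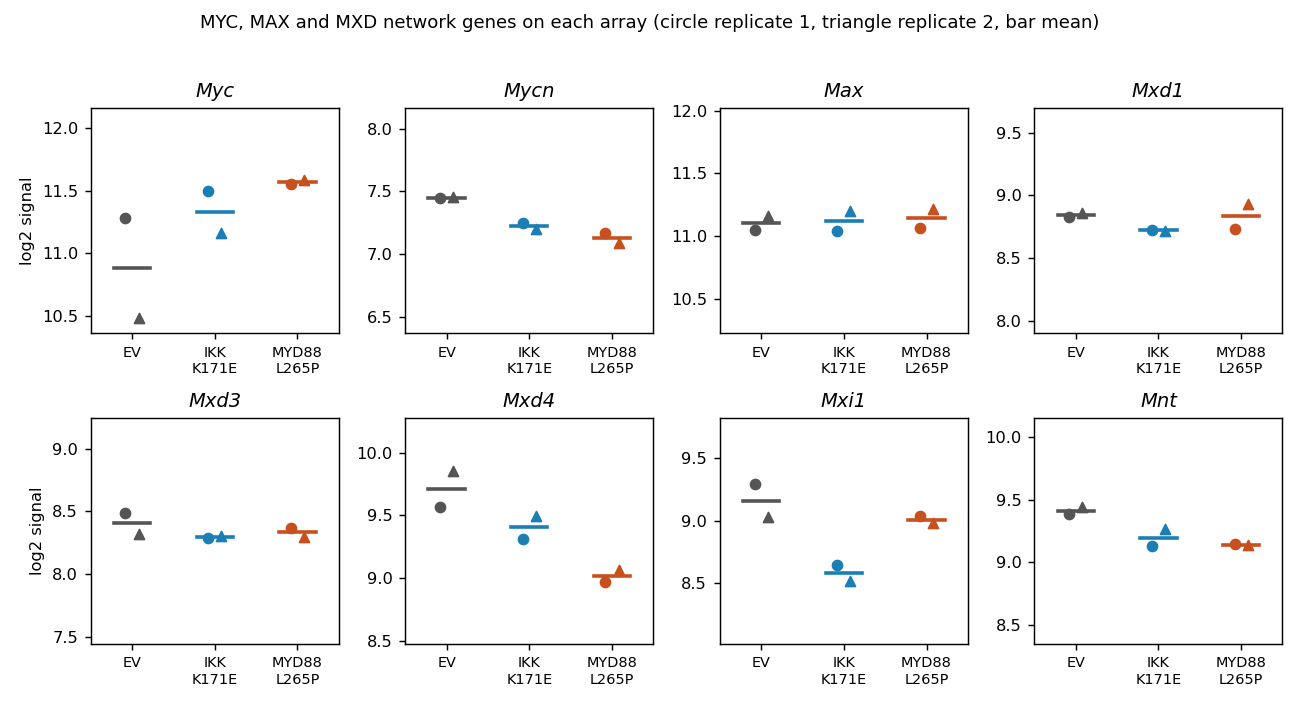
Log2 signal (vertical axis, every panel of the same height) of the 8 network genes on the 6 arrays, by group. Circles are replicate 1, triangles replicate 2 and bars the group mean; Mxd4 steps down from EV through IKK_K171E to MYD88_L265P, Mxi1 is lowest in IKK_K171E, and EV replicate 2 holds the lowest Myc value.

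Among the 5 repressor genes, Mxd4 had the clearest difference. Mxd4 encodes a MAX partner found in differentiating and resting cells. It stood at 9.57 and 9.85 in EV, 9.31 and 9.50 in IKK_K171E, and 8.97 and 9.06 in MYD88_L265P. The groups did not overlap, and each MYD88_L265P array lay below each IKK_K171E array. Mxd4 fell by 0.69 in MYD88_L265P relative to EV (SE 0.12, interval -0.98 to -0.40, 1.62-fold, limma adjusted p = 0.0154), a change lower than those of all but 1.47% of features. The log2 fold change was -0.31 in IKK_K171E against EV (SE 0.12, interval -0.60 to -0.01, adjusted p = 0.274) and -0.39 in MYD88_L265P against IKK_K171E (interval -0.68 to -0.10, adjusted p = 0.172), so the IKK_K171E arrays were not separated from either group by the test. The call ended when EV replicate 2 was left out (-0.55, adjusted p = 0.0555) and when either MYD88_L265P array was, at -0.65 for replicate 1 (adjusted p = 0.0994) and -0.74 for replicate 2 (adjusted p = 0.0879).

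The genes nearest to Mxd4 in their centred values over the 6 arrays were Ncf4, a subunit gene of the phagocyte NADPH oxidase that B cells also express (root mean square difference 0.0433), Fuca1, a lysosomal fucosidase gene (0.0437), and Olfr168, an olfactory receptor gene (0.0505). Ncf4 read 9.86 and 10.12 in EV, 9.71 and 9.84 in IKK_K171E, and 9.32 and 9.35 in MYD88_L265P. With 6 arrays in 3 groups, any gene that steps down in the same order lies close to Mxd4.

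Mxi1, which encodes the repressor also called MAD2, had another order of groups. It stood at 9.29 and 9.03 in EV, 8.65 and 8.52 in IKK_K171E, and 9.03 and 8.98 in MYD88_L265P. Both IKK_K171E arrays lay below all others, and the MYD88_L265P arrays reached into the EV range. The log2 fold change in IKK_K171E against EV was -0.57 (SE 0.11, interval -0.84 to -0.31), or 1.49-fold lower, with a limma adjusted p of 0.0636 that missed the threshold. It lay below all but 0.812% of features in that comparison. The direct comparison of the constructs gave 0.42 (interval 0.16 to 0.69, adjusted p = 0.126), and MYD88_L265P against EV gave -0.15 (interval -0.42 to 0.12, adjusted p = 0.341). Quantile normalization (-0.63, adjusted p = 0.0404) and the replicate block (-0.57, adjusted p = 0.0376) each brought the IKK_K171E difference past the threshold.

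Mnt, which encodes the repressor that pairs with MAX in most cell types, had lower values with both constructs than with EV, without passing the test. It read 9.39 and 9.44 in EV, 9.13 and 9.27 in IKK_K171E, and 9.15 and 9.14 in MYD88_L265P. The EV arrays lay above the other 4, which overlapped among themselves. The log2 fold changes against EV were -0.27 for MYD88_L265P (SE 0.09, interval -0.48 to -0.06, limma adjusted p = 0.0768) and -0.22 for IKK_K171E (SE 0.09, adjusted p = 0.289).

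Mxd1 and Mxd3 differed little. Mxd1, a gene induced as cells differentiate terminally, read 8.83 and 8.86 in EV, 8.73 and 8.71 in IKK_K171E, and 8.74 and 8.93 in MYD88_L265P. Its intervals ran from -0.24 to 0.22 for MYD88_L265P against EV and from -0.35 to 0.10 for IKK_K171E against EV (limma adjusted p = 0.940 and 0.573). Mxd3, which unlike its relatives is linked to S phase in dividing cells, read 8.49 and 8.32 in EV, 8.29 and 8.30 in IKK_K171E, and 8.37 and 8.30 in MYD88_L265P. Its intervals were -0.30 to 0.15 and -0.34 to 0.11 (adjusted p = 0.590 and 0.613). The sign of the small MYD88_L265P differences turned under a common median for both genes (0.073 and 0.013), and under quantile normalization for Max (-0.10).

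**Figure D2:**
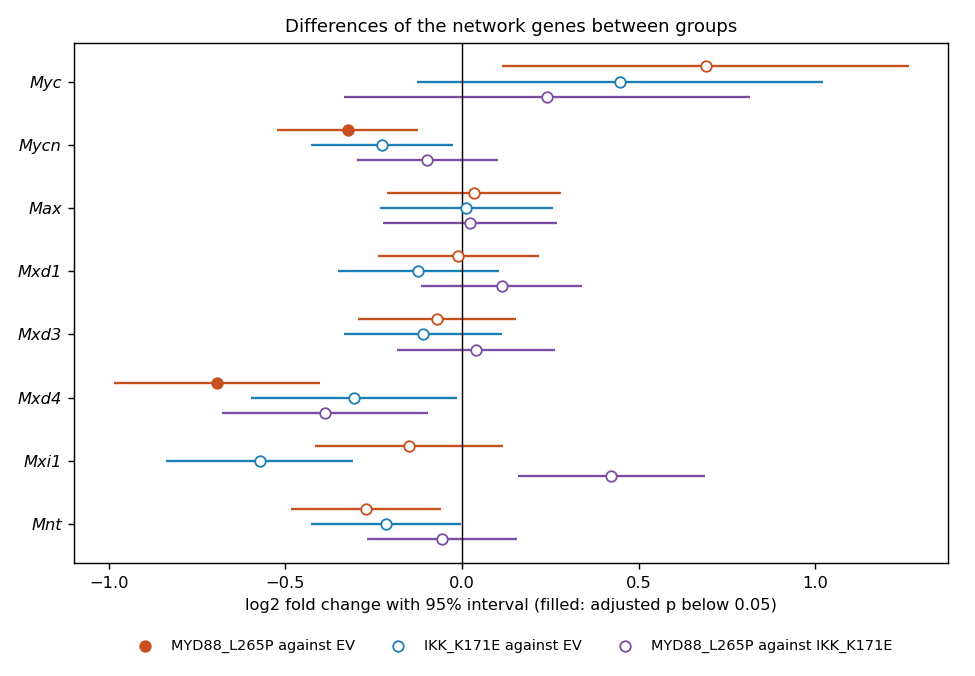
Log2 fold change (horizontal axis) of each network gene in the 3 comparisons, with 95% intervals from the limma fit. Filled points have an adjusted p below 0.05, which holds for Mycn (-0.32) and Mxd4 (-0.69) in MYD88_L265P against EV and for no other point.

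In MYD88_L265P against EV, limma called 2 of the 8 genes lower and 0 higher at an adjusted p below 0.05. Of all 21542 features, 16.6% were called in that comparison, 7.33% lower and 9.32% higher. A common median in place of the deposited scale moved the share of higher calls from 56.0% to 77.4%. Arrays of MYD88_L265P and EV did not overlap for 1 gene higher (Myc) and 3 lower (Mycn, Mxd4 and Mnt), and the same was true of 23.2% and 47.9% of all features, or 71.1% in either direction. The median log2 fold change was -0.11 over the 8 genes and -0.11 over all features, and a median over 8 genes was not tested against the array. Markers of other cells were also called in this comparison. Lower were 3 of 7 T cell genes and 2 of 7 NK cell genes, and of 7 dendritic cell genes 2 were lower and 1 higher. Of 8 monocyte and macrophage genes 1 was called lower, Adgre1 (-1.78), and of 7 neutrophil genes 1, Ly6g (-0.49). Above 0 were the log2 fold changes of 5 of these monocyte and macrophage genes and 0 of these neutrophil genes. The median of the T cell list was 7.84 and 7.94 in EV and 7.58 and 7.54 in MYD88_L265P. Over the T cell genes the median log2 fold change was -0.36, and over the NK cell genes -0.06. Among the NK cell genes Klrd1 fell by 1.16 and Nkg7 by 0.39, while the others ran from -0.11 to 0.08. The part of these markers in the Mycn and Mxd4 differences was not tested.

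In IKK_K171E against EV, limma called 0 of the 8 genes, and 4 were lower at an unadjusted p below 0.05 (Mycn, Mxd4, Mxi1 and Mnt). Of all features 1.37% were called, 0.956% higher and 0.413% lower. The arrays did not overlap for 6 genes, all lower in IKK_K171E (Mycn and the 5 repressor genes), against 28.4% of features lower and 17.6% higher without overlap, 46% in all. The median log2 fold change was -0.17 over the 8 genes and -0.04 over all features. Monocyte and macrophage markers moved in the same comparison: the median of 8 listed genes was 8.36 and 8.23 on the EV arrays, 9.17 and 8.87 in IKK_K171E, and 8.50 and 8.31 in MYD88_L265P, with 1 of the 8 called higher and 1 lower in IKK_K171E. The 1 called higher was Csf1r (1.22) and the 1 called lower was Adgre1 (-1.17). Dendritic cell markers had 2 of 7 higher there. Their part in the lower repressor signals was not tested, and fewer cells of a type cannot be told apart from less RNA per cell in such bulk samples.

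In the direct comparison of MYD88_L265P with IKK_K171E, limma called 0 of the 8 genes, while 1.75% of all features were called, 0.873% higher and 0.877% lower. At an unadjusted p below 0.05 Mxi1 was higher and Mxd4 lower. Arrays did not overlap for Myc, Mxd1 and Mxi1, higher in MYD88_L265P, and for Mycn and Mxd4, lower, against 20.9% and 36.1% of all features, 57% in either direction. The 2 comparisons with EV share its arrays, so the lower Mycn, Mxd4 and Mnt signals in both were not independent of each other.

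The promoters of the network carry its own binding site in some cases. RefSeq promoter windows of GRCm38.p6, from 250 bases before to 50 bases after a start site, were found for 7 of the 8 genes (9 windows, 3 of them of Mxi1), and Myc was not matched. The E-box searched was CACGTG, which reads the same on both strands, and it was present in windows of Max, Mxd4 and Mnt. Of all 32851 windows 7.15% held it. The 3 windows are shown because Mxd4, Mnt and Max share the E-box. In MYD88_L265P Mxd4 was called lower, Mnt was lower but short of the threshold, and Max was level. The genes were not tested against each other. Among the 3 Mxi1 windows, only the window shown held GTAAACA, the core bound by FOXO factors. This motif was searched on both strands and was present in 3.65% of all windows and 4.05% of genes with a window. The window is shown because Mxi1 was the network gene with the largest difference between IKK_K171E and EV. Capitals mark these motifs, and each sequence runs 5′ to 3′ on the strand of the gene.
Mxd4, chr5:34187661-34187960, minus strand: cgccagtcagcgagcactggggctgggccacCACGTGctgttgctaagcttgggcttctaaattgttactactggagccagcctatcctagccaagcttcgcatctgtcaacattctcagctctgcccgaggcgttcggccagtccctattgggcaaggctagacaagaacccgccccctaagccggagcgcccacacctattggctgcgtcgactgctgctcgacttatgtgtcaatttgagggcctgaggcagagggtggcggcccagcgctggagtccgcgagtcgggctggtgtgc
Mnt, chr11:74830674-74830973, plus strand: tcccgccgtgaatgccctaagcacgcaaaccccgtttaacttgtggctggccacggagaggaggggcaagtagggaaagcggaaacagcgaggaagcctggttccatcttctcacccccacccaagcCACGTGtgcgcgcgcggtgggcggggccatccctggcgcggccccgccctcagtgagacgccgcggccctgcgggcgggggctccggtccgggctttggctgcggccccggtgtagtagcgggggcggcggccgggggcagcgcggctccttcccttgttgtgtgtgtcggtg
Max, chr12:76962199-76962498, minus strand: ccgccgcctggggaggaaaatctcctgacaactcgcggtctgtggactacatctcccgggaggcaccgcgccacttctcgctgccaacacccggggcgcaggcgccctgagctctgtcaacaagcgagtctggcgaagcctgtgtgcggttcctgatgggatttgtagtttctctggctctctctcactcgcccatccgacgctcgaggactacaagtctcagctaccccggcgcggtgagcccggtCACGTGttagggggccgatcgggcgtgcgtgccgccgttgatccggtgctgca
Mxi1, chr19:53329445-53329744, plus strand: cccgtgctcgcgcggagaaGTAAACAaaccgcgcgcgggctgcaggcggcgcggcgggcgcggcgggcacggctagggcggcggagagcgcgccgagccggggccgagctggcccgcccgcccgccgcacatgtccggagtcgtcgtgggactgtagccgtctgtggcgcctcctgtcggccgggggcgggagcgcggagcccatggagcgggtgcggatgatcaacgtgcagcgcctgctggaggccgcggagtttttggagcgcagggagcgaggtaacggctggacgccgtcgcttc
The E-box lay at -219 to -214 from the start site in Mxd4 and at -123 to -118 in Mnt, and it spanned the start in Max. The FOXO match in Mxi1 lay at -231 to -225. The kappaB motif was found in 1 of the 9 windows, that of Mycn, and in 8.46% of all windows. A match is a string of letters and was not tested as a bound site.

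The extended network had 1 of 5 genes called, lower in MYD88_L265P, where 7.33% of all features were lower. Mlxip, which encodes MondoA, the glucose-sensing factor that pairs with MLX in place of MAX, read 11.17 and 10.63 in EV, 10.18 and 10.39 in IKK_K171E, and 10.28 and 10.21 in MYD88_L265P. It fell by 0.66 in MYD88_L265P relative to EV (SE 0.17, limma adjusted p = 0.0448), and its log2 fold change in IKK_K171E was -0.62 (adjusted p = 0.135). Against EV, the log2 fold change of Mlx, the gene of its partner, was 0.37 in MYD88_L265P and 0.07 in IKK_K171E (adjusted p = 0.0752 and 0.835). Mycl, the third MYC paralogue, had -0.31 and -0.25 (adjusted p = 0.0803 and 0.301), Mga, a MAX partner with a T-box domain, had -0.16 and -0.15, and Mlxipl, the gene of ChREBP, had -0.12 in MYD88_L265P. Of these 5 genes 0 were called by limma without EV replicate 1 or without any 1 array of the other groups, 1 was called lower without EV replicate 2, and 1 was called higher and 0 lower with a common median. At an unadjusted p below 0.05, with all arrays, 1 was higher and 2 were lower.

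Of 5 genes listed as targets of MLXIP and MLXIPL, Txnip was the 1 called, lower in MYD88_L265P and in IKK_K171E. Called lower over all features were 7.33% and 0.413%. Txnip, a brake on glucose uptake, read 11.44 and 11.48 in EV, 10.50 and 10.45 in IKK_K171E, and 10.12 and 10.05 in MYD88_L265P, with no overlap between groups. It fell by 1.38 in MYD88_L265P (limma adjusted p = 0.00161) and by 0.99 in IKK_K171E (adjusted p = 0.0084), where the call ended without IKK_K171E replicate 1. Arrdc4, its close relative under the same factors, had log2 fold changes of -0.11 and 0.35 (adjusted p = 0.627 and 0.325). Arrdc4 is a dim feature, with a mean signal above that of 26.3% of features.

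Of 15 measured genes of the corepressor machinery that MXD and MNT recruit, 4 (26.7%) were called higher and 0 lower in MYD88_L265P (median 0.04). The share called higher was 9.32% over all features and 22.2% among the brightest of 4 equal groups of features by signal, so this count lies near that of bright features. Among the 4, Sap30, a SIN3 complex subunit gene, rose by 0.97 (SE 0.14), the deacetylase gene Hdac2 by 0.75 (SE 0.12) and the histone chaperone gene Rbbp7 by 0.60 (SE 0.11). In IKK_K171E 1 of these rose, Rbbp7, by 0.71 (limma adjusted p = 0.0399). Of 15 MYC cofactor genes 5 (33.3%) rose in MYD88_L265P and 0 fell (median 0.09), led by Ruvbl1 and Ruvbl2, which encode paired ATPases of chromatin complexes, at 1.34 and 0.88, and Actl6a at 0.73. Actl6a also rose in IKK_K171E, by 0.60 (adjusted p = 0.0410), the 1 of 15 that did. Sin3a and Sin3b themselves did not pass in any of the 3 comparisons. In MYD88_L265P the counts of both lists were 0 without either of its own arrays, without EV replicate 2 they were 2 and 2, and without EV replicate 1 they were 3 and 3. In IKK_K171E they were 0 and 0 without EV replicate 2, IKK_K171E replicate 1 or either MYD88_L265P array, 1 and 0 without EV replicate 1, and 1 and 3 without IKK_K171E replicate 2. The replicate block gave 2 and 1 there. Quantile normalization turned the medians to -0.08, with 3 higher and 2 lower, and -0.03.

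Genes of MYC protein turnover had 3 higher (16.7%) and 1 lower (5.56%) of 18 in MYD88_L265P against EV (median 0.19), near the 9.32% and 7.33% of all features, and 0 in IKK_K171E (limma, with 2 higher and 3 lower at an unadjusted p below 0.05). Aurka, a mitotic kinase also known to shield MYCN from degradation, rose by 0.89, the deubiquitinase gene Usp37 by 0.72 and Skp2, a ubiquitin ligase subunit gene, by 0.67. Fbxo32, another ligase subunit gene, fell by 0.74. Aurka is also a G2/M gene, and its EV replicates stood at 9.55 and 8.79. The split was 5 higher and 1 lower without EV replicate 1, 2 and 3 under quantile normalization, 0 and 1 without MYD88_L265P replicate 1, and 0 and 0 without its replicate 2.

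Of 17 measured regulators that act on Myc itself, 1 (5.88%) was called higher and 4 (23.5%) lower in MYD88_L265P. Of all features 9.32% were called higher and 7.33% lower there. In IKK_K171E the share of regulators called lower was 11.8%, against 0.413% of all features. Prdm1, which encodes BLIMP1, a repressor of Myc in plasma cells, rose by 2.47 in MYD88_L265P (SE 0.22, limma adjusted p = 0.00396). Its log2 signal was 7.92 and 8.13 in EV, 8.65 and 7.96 in IKK_K171E, and 10.65 and 10.34 in MYD88_L265P, the arrays on which Myc was highest. Of 6 plasma cell markers 3 were called higher in MYD88_L265P, Prdm1 itself, Jchain (2.22) and Xbp1 (1.26). Irf4 missed the threshold (0.83, limma adjusted p = 0.0569), and Sdc1 and Tnfrsf17 did not rise (-0.12 each). The median of the 6 markers was 8.39 and 8.59 in EV, 9.03 and 8.07 in IKK_K171E, and 10.57 and 10.28 in MYD88_L265P. Their part in the network values was not tested. Notch2 fell by 0.62, the NF-kB subunit gene Rel by 0.60 and Bach2 by 0.51 in MYD88_L265P, with 4 of 17 regulators lower in all and Prdm1 the 1 higher. The lower count was 2 without either EV array or with a common median, and 0 without either MYD88_L265P array. In IKK_K171E 2 fell and 0 rose, Bach2 by 0.90 (adjusted p = 0.0375) and Ets1 by 0.57 (adjusted p = 0.0432), and 0 of the 17 were called without any 1 array other than IKK_K171E replicate 2 (limma, with 2 higher and 7 lower at an unadjusted p below 0.05 with all arrays). Nfkb2 was lower and Prdm1 higher in MYD88_L265P than in IKK_K171E (-0.65 and 2.19, adjusted p = 0.0254 and 0.0106).

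Genes known to be induced by MYC were higher in large part in MYD88_L265P. Of all features 9.32% were called higher, and 22.2% in the brightest of 4 equal groups by signal. Of 36 measured metabolic and growth genes 20 (55.6%) rose and 0 fell, with a median log2 fold change of 0.68. Srm, which makes spermidine, rose by 1.97 (SE 0.30), Tfrc, the transferrin receptor gene, by 1.68 (SE 0.22) and Shmt2, a mitochondrial enzyme gene of one-carbon metabolism, by 1.60 (SE 0.29). Of 32 ribosome biogenesis genes 19 (59.4%) rose and 0 fell, with a median of 0.70. Rrs1 rose by 1.72 (SE 0.10), Mrto4 by 1.52 (SE 0.23) and Nop58 by 1.51 (SE 0.18). These lists were chosen with earlier results of these data known. The counts hung on the replicates of MYD88_L265P: without its replicate 1 they were 1 and 3 for the metabolic and ribosome lists, and without its replicate 2 they were 1 and 2. Without EV replicate 2 they were 11 and 7. The medians lay between 0.57 and 0.76 for the metabolic list and between 0.64 and 0.79 for the ribosome list over the 15 alternatives.

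In IKK_K171E the same lists leaned the same way with few calls, where 0.956% of all features were called higher. Of the metabolic and growth genes 2 rose and 0 fell (median 0.46), Tfrc by 1.28 (limma adjusted p = 0.0467) and E2f3, a factor of S phase entry, by 1.03 (adjusted p = 0.0296). Of the ribosome genes 3 rose and 0 fell (median 0.52), Nop58 by 1.23, Rrs1 by 1.21 and the nucleolar GTPase gene Gnl3 by 1.12. At an unadjusted p below 0.05, 19 and 20 members were higher. IKK_K171E replicate 1 stood above replicate 2 in the median of the ribosome list (10.22 and 9.66), as it did in Myc (11.50 and 11.16) and in Ikbkb. Without replicate 2 the counts were 16 and 18, without replicate 1 they were 0 and 0, and without EV replicate 2 they were 1 and 1. Without either MYD88_L265P array they were 0 and 1, and with the replicate block 7 and 4. MYD88_L265P against IKK_K171E gave 0 calls in both lists (limma, with 11 and 3 higher at an unadjusted p below 0.05).

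Genes listed as repressed by MYC had 3 of 16 (18.8%) lower and 0 higher in MYD88_L265P (median -0.22). Called lower were 7.33% of all features (median -0.11) and 10.8% in the brightest of 4 equal groups by signal. Btg1, an antiproliferative gene, fell by 0.83, Ccng2, a cyclin gene of quiescent cells, by 0.63 and Hbp1, a repressor of cell cycle genes, by 0.54. In IKK_K171E 0 of 16 were called by limma, with 5 lower and 1 higher at an unadjusted p below 0.05. Without either MYD88_L265P array the count in MYD88_L265P was 0, and without EV replicate 2 it was 2. Without EV replicate 1 it was 4 lower and 1 higher. The replicate block gave 2 lower in IKK_K171E.

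**Figure D3:**
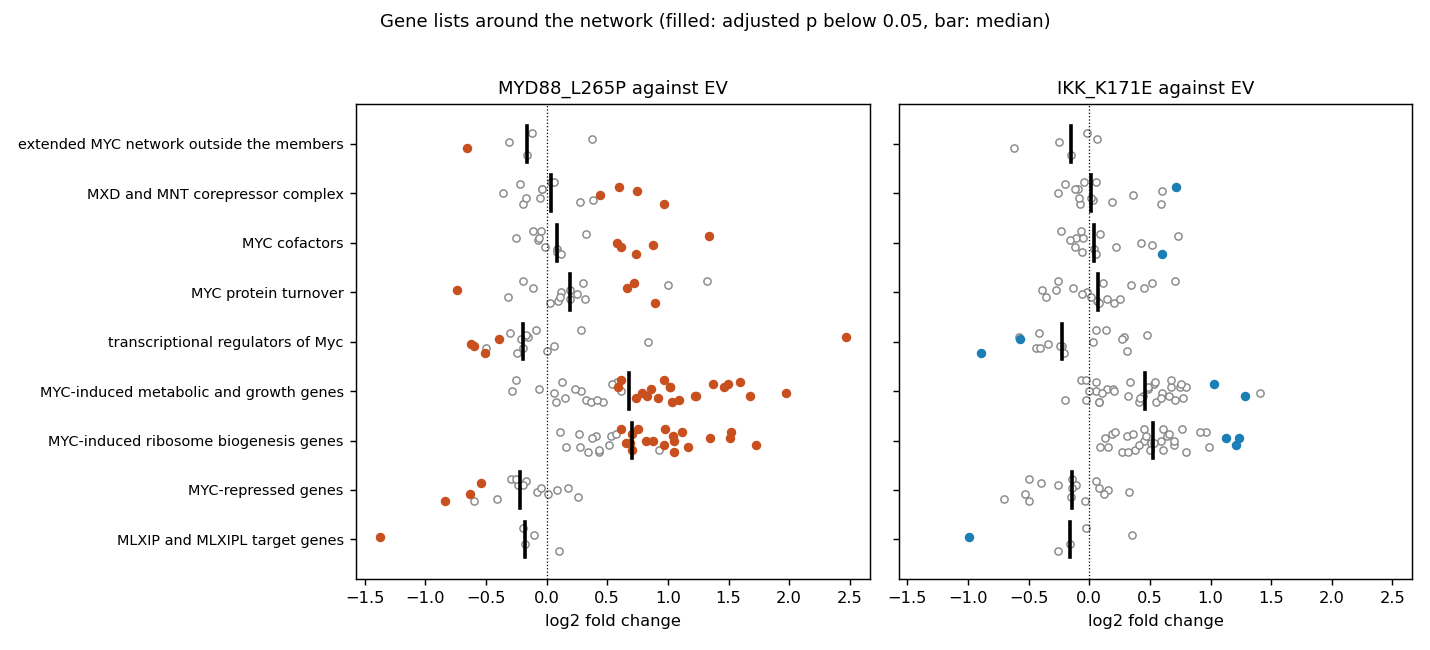
Log2 fold changes (horizontal axis) of the measured genes of 9 lists around the network, in MYD88_L265P against EV and IKK_K171E against EV. Filled points have an adjusted p below 0.05 and bars are medians, which lie at 0.68 and 0.70 for the MYC-induced lists on the left and at 0.46 and 0.52 on the right.

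Set beside these lists array by array, Myc and the MYC-induced lists ordered the arrays alike in part. The median log2 signal of the ribosome list was 9.33 and 9.40 on EV replicates 1 and 2, 10.22 and 9.66 in IKK_K171E, and 10.10 and 10.12 in MYD88_L265P. The EV arrays lay close together in this median and far apart in Myc, with Myc higher on replicate 1 and the ribosome median slightly higher on replicate 2. The median of the metabolic and growth list was 9.68 and 9.53 in EV, 10.46 and 9.85 in IKK_K171E, and 10.67 and 10.67 in MYD88_L265P. As in Myc, EV replicate 2 was lowest in this list, IKK_K171E replicate 1 lay above replicate 2, and both MYD88_L265P arrays were highest. EV replicate 1 exceeded IKK_K171E replicate 2 in Myc and stood below it in both list medians.

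Cell cycle genes differed between the EV arrays as Myc did. The median of 17 G2/M genes was 10.80 on EV replicate 1 and 9.43 on EV replicate 2, against 10.68 and 10.38 in IKK_K171E and 11.02 and 11.11 in MYD88_L265P. For 16 S phase genes it was 9.81 and 9.15 in EV, 10.38 and 9.88 in IKK_K171E, and 10.54 and 10.46 in MYD88_L265P. EV replicate 2 was thus the lowest array in Myc, in S phase and in G2/M genes. In MYD88_L265P against EV 13 of the 16 S phase genes rose and 2 of the 17 G2/M genes did, and without EV replicate 1 the counts were 15 and 17. They were 5 and 0 without EV replicate 2, 3 and 0 without MYD88_L265P replicate 1, and 1 and 0 without its replicate 2. With the replicate block they were 15 and 6. The counts with all arrays were 81.2% of the S phase list and 11.8% of the G2/M list. Of all features 9.32% were called higher in MYD88_L265P, and 22.2% in the brightest of 4 equal groups by signal. The G2/M count thus lay near that of all features. The median log2 fold change was 1.04 for the S phase list, 0.86 for the G2/M list and -0.11 over all features. The part of cell cycle differences in the Myc values was not tested.

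**Figure D4:**
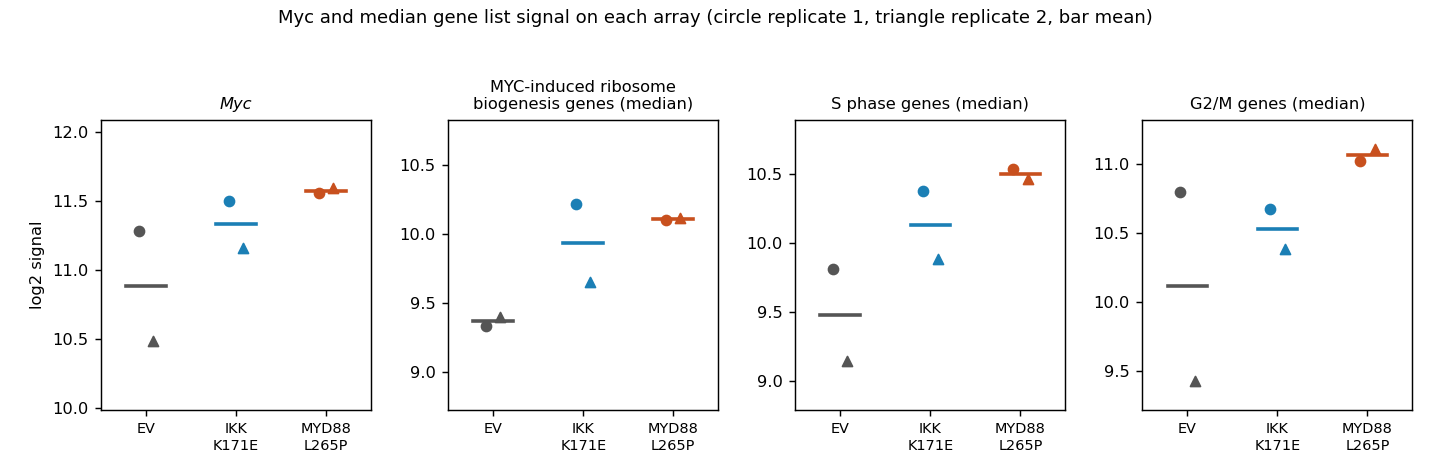
Log2 signal of Myc and the median log2 signal of 3 gene lists (vertical axes, every panel of the same height) on the 6 arrays, with circles for replicate 1, triangles for replicate 2 and bars for means. The EV arrays lie apart in Myc, at 11.28 and 10.48, and together in the ribosome list, at 9.33 and 9.40.

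Across the arrays left out in turn, the signs of the Myc, Mycn, Mxd4, Mxi1 and Mnt differences from EV did not turn. In MYD88_L265P against EV, the Myc value ranged from 0.29 to 1.09, Mxd4 from -0.83 to -0.55 and Mnt from -0.30 to -0.25. In IKK_K171E against EV, Myc ranged from 0.05 to 0.85, Mxi1 from -0.70 to -0.44 and Mxd4 from -0.45 to -0.16.

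**Figure D5:**
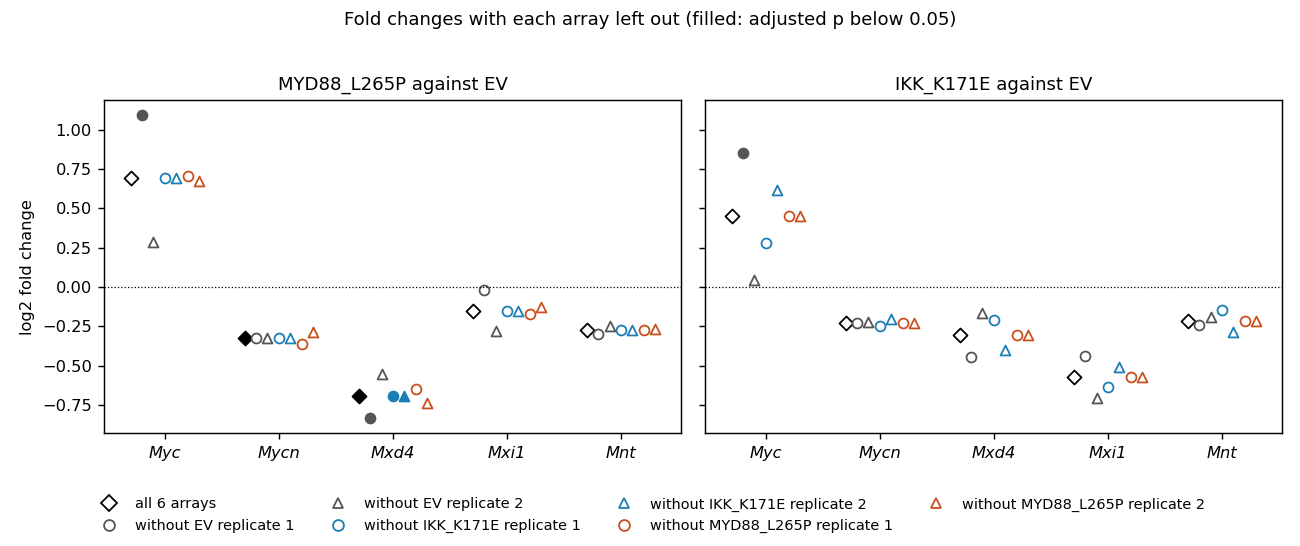
Log2 fold change (vertical axis) of 5 network genes against EV with all 6 arrays (diamonds) and with each array left out (colour by group, circle for replicate 1, triangle for replicate 2). Filled symbols have an adjusted p below 0.05; Myc moves most, from 1.09 without EV replicate 1 to 0.29 without EV replicate 2 in MYD88_L265P.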

How the data were processed

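RNA of the sorted cells was measured on 1 array per sample. The authors deposited log2 values, 1 per feature and array. The series' design text says that arrays were normalized, and oligo and limma are the tools in the submitters' processing notes. The methods of background correction, normalization and summarization and the genome build are not given in the sources used here. Of 24743 features, 21542 with exactly 1 gene symbol in the platform annotation (19818 genes) were tested. Another 1522 had several symbols and 1679 had none.

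Group means of all 6 arrays were fitted with limma 3.58.1 in R 4.3.3 (3 residual and 4.17 prior degrees of freedom), with no filter or rescaling. The two-sided p-values were adjusted by Benjamini-Hochberg over all features of a comparison. The threshold for a call was 0.05, and intervals are 95%. The number of arrays limits the precision.

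Listed genes were represented by their brightest feature, and 237 of 257 were measured. Genes named are the 8 members, the extended network, up to 3 largest called genes of each list and direction, and the 3 nearest patterns of each called member. Arrdc4, Sin3a, Sin3b, the plasma cell, NK cell, monocyte and neutrophil markers and the transduced genes were named outside this rule, after their values were seen. Members and lists were chosen with earlier results of these data known. The fit was run on simulated data drawn from its own variance model, which does not test how it deals with uneven replicates. Alternatives covered the replicate block, scaling, variance model, array weights, features, arrays and each array left out.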

Additional observations from a re-analysis of the deposited data

How the results depend on the processing

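The count of network genes called in MYD88_L265P against EV was 2. It was 1 under quantile normalization, 1 when the arrays were given a common median, and 1 with the arrays of those 2 groups alone. Leaving out each array in turn gave 0 to 2. In IKK_K171E against EV the count was 0, and it was 1 with the replicate block and 1 under quantile normalization (Mxi1 both times), with 0 to 1 over the arrays left out. It was 0 under all 15 alternatives in MYD88_L265P against IKK_K171E. No label says what a shared replicate number marks. The titles number the IKK_K171E and MYD88_L265P arrays alike and EV replicate 1 otherwise. Deviations of same-numbered arrays from the group means correlated at 0.211, 0.105 and 0.144 between groups, from 2 numbers, so a pairing is neither given nor settled by these values. With these numbers as a replicate block Myc passed in MYD88_L265P against EV (adjusted p = 0.0432), for a count of 3, and Mxi1 in IKK_K171E against EV (0.0376). The features called over the array rose from 3586 to 4128 and from 295 to 626.

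Of 360 recomputed log2 fold changes of single network genes, 326 kept their direction and side of the threshold, 12 lost a call, 5 gained one and 17 turned their sign, these 17 without a call. Under quantile normalization Max was -0.099 for MYD88_L265P and -0.020 for IKK_K171E relative to EV, and between the constructs Max was -0.079 and Mycn 0.0079. With a common median Mxd1 was 0.073 and Mxd3 0.013 in MYD88_L265P against EV, and Mnt 0.015 in MYD88_L265P against IKK_K171E. Over the arrays left out, the values in MYD88_L265P against EV ran from -0.041 to 0.11 for Max, from -0.11 to 0.086 for Mxd1 and from -0.16 to 0.015 for Mxd3. Max ran from -0.067 to 0.091 in IKK_K171E against EV and from -0.057 to 0.10 in MYD88_L265P against IKK_K171E, where Mnt ran from -0.13 to 0.012. The cause was not tested. Without MYD88_L265P replicates 1 and 2 the features called over the array in MYD88_L265P against EV numbered 415 and 191, and without IKK_K171E replicate 1 those in IKK_K171E against EV numbered 0, under limma.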

Other observations

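The E-box CACGTG was also counted in the promoter windows of the listed genes, as a description with no test. Of 27 ribosome biogenesis genes with a window, 9 (33.3%) held it, as did 10 of 32 MYC-induced metabolic and growth genes (31.2%), against 8.09% of the 27025 genes with a window. The E-box was in a window of 1 of 13 S phase genes and 0 of 13 G2/M genes. Many members of the MYC-induced lists are known because such sites were found near them, so these shares are not independent of how the lists arose.

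Signal level and direction went together over the array in MYD88_L265P against EV. Features were split into 4 equal groups by mean signal. Below 0 lay 82.1% of features in the dimmest group and 41.7% in the brightest, with medians of -0.15 and 0.09. In the brightest group 22.2% of features were called higher, and in the dimmest 1.28%. Myc, Max and Mxd4 lie in the brightest group, where 10.8% of features were called lower. Mycn lies in group 2 from below, with 5.55% called lower, and Mxd1, Mxd3, Mxi1 and Mnt in group 3, with 8.15%.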
